A study of Mus musculus with 49 samples.

Results

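The genes described here encode the ligands and receptors that guide growing axons. They were chosen by gene symbol, taking semaphorins, plexins, neuropilins, ephrins, Eph receptors, slits, robos, netrins and netrin receptors, and each gene was read from its brightest probe set over all arrays. The rule found 55 genes on 91 probe sets, out of 11807 genes that the array names with a single symbol. One of them, Unc50, matched the rule by its letters only and is no netrin receptor; it was called in none of the 9 genotype contrasts, with differences between −0.27 and 0.14 on the log2 scale, and the counts below cover the other 54 genes.

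The arrays came from laser-captured neuronal layers of the hippocampus, namely the pyramidal cells of CA1, those of CA3 and the granule cells of the dentate gyrus (DG), of 17 female mice aged 6.1 months. The rTg4510 mice (6 animals) carried a mutant human tau responder transgene and the tTA activator behind the CaMKIIα promoter. Human tau was thus made where that promoter is active, in forebrain excitatory neurons. The tTA mice (5 animals) carried the activator alone, and the DN mice (6 animals) carried neither transgene. The contrast of rTg4510 with tTA addressed the human tau responder, and the contrasts with DN mice the activator alone or both transgenes. The array groups held 6 DN, 5 tTA and 5 rTg4510 libraries for CA1, 5, 5 and 6 for CA3, and 6, 5 and 6 for DG.

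Guidance ligands steer axons by attraction or repulsion. Semaphorins signal through plexins, with neuropilins as the co-receptors for most of the secreted class, slits repel through robos, netrins attract through Dcc and repel through Unc5 receptors, and ephrins and Eph receptors, each anchored in a membrane, signal between touching cells. In the adult hippocampus the same molecules stay expressed and are known for roles in synapse structure and plasticity, as at the mossy fibre projection from DG granule cells to CA3.

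All values are log2 array intensities after RMA, and a gene is called where the Benjamini-Hochberg adjusted p over all probe sets tested was under 0.05 in limma. A level below 5.04, the median over probe sets, is termed dim, since changes in dim probe sets are compressed on this scale, and the level of one probe set is never set against that of another. Of the 54 members, 22 were dim in all 9 groups and 21 in none. The layers carried their labelled markers in DN mice, with 4 of 4 CA1 pyramidal markers called higher in CA1 than in both other layers, 3 of 4 CA3 pyramidal markers higher in CA3 and 6 of 6 dentate granule markers higher in DG. Markers of other cells moved with genotype. The mean level of 11 microglial genes ran from 5.20 to 5.65 in DN CA1, from 5.71 to 6.08 in tTA CA1 and from 6.70 to 7.61 in rTg4510 CA1, and that of 9 astrocyte genes from 7.63 to 8.12, from 7.92 to 8.63 and from 9.12 to 9.69. The mean of the 4 CA1 pyramidal genes fell over the same groups, from a range of 9.12 to 9.41 in DN, through 8.44 to 9.43 in tTA, to 6.40 to 8.03 in rTg4510. For every genotype contrast below, fewer cells of a type in the captured layer and less RNA per cell cannot be told apart.

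**Figure D1:**
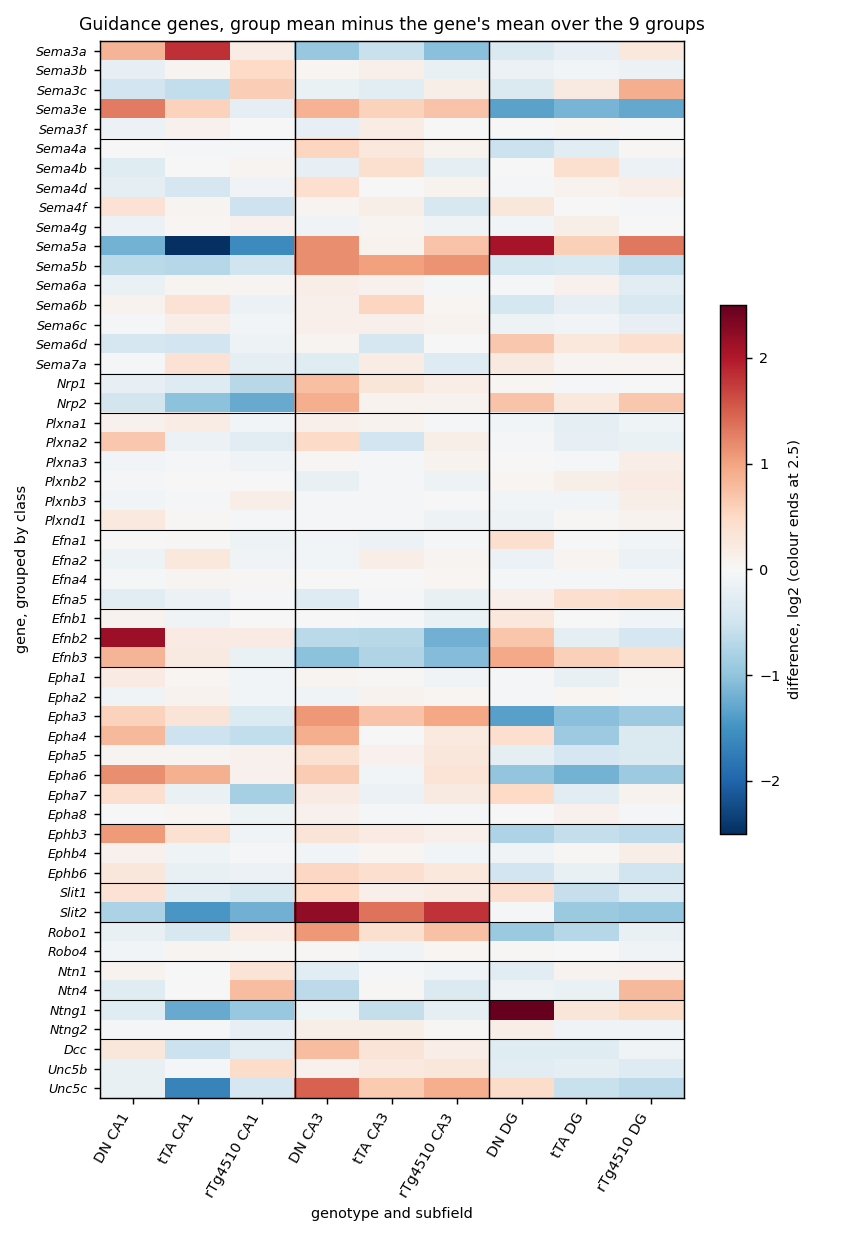
Mean log2 level of each of the 54 guidance genes in the 9 groups, shown as the difference from that gene's own mean over the groups, with genes ordered by class. Slit2 stands high in CA3 of all 3 genotypes, while Ntng1 stands high in DG and Efnb2 in CA1 of DN mice.

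In DN mice, the 3 layers differed in guidance genes on both the ligand and the receptor side. CA3 held the highest levels of Slit2 and of its receptor Robo1, CA1 the highest of the ephrin-B ligand Efnb2 and of the secreted repellent Sema3a, and DG the highest of the netrin-G ligand Ntng1 and of Sema5a. Of the 54 genes, 4 were called higher and 9 lower in CA1 than in CA3, where 6.73% and 7.08% of all named genes were called in those directions. In CA1 against DG, 14 were higher and 6 lower, beside 9.44% and 8.96% of all named genes. In CA3 against DG, 15 were higher and 8 lower, beside 11.6% and 10.7%. Together 26 genes (48.1%) were called in at least 1 of the 3 comparisons, and 7 (13%), Efnb2, Ephb3, Robo1, Sema3a, Sema4a, Sema5a and Slit2, in all of them. Of all named genes 31.1% and 3.22% were.

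Slit2, a secreted repellent, stood at 8.67, 8.29, 8.80, 8.19 and 7.81 in the 5 CA3 arrays of DN mice. In CA1 its lowest, median and highest levels were 4.70, 5.42 and 5.87, and in DG 5.81, 6.03 and 6.58. Every CA3 array lay above every array of the other layers. The difference of CA1 from CA3 was −2.99 ± 0.24 on the log2 scale (SE, limma adjusted p = 1.83e-13), and that of CA3 from DG was 2.24 ± 0.24 (adjusted p = 3.6e-10). Robo1, the receptor for slits, had its highest levels in the same layer, at 10.37, 10.27, 10.41, 10.22 and 9.90 in CA3. The CA1 arrays ran from 8.62 to 9.25 with a median of 9.01, and the DG arrays from 7.73 to 8.70 with a median of 8.28, so that CA3 stood apart while CA1 and DG overlapped. The difference between CA1 and CA3 was −1.27 ± 0.16 (SE, adjusted p = 3.65e-08) and that between CA1 and DG 0.75 ± 0.15 (adjusted p = 0.000199). Slit1, the other slit measured, was called in no comparison of layers in DN mice, with differences of −0.14, −0.06 and 0.09.

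Other genes high in CA3 were receptors and membrane semaphorins. Unc5c, a netrin receptor that mediates repulsion, ran from 9.09 to 9.55 in CA3, from 7.30 to 7.76 in CA1 and from 7.98 to 8.47 in DG, with no overlap between layers, and was lower in CA1 than in CA3 by −1.66 ± 0.31 (adjusted p = 6.67e-05). Nrp1, a co-receptor for secreted semaphorins, ran from 9.04 to 9.39 in CA3 and from 8.01 to 8.46 in CA1 (difference −0.95 ± 0.13, adjusted p = 1.45e-07). Its relative Nrp2 shared the low level in CA1, at 6.90 to 7.68, against 8.60 to 8.87 in CA3 and 8.12 to 8.86 in DG, where CA3 and DG overlapped. Sema5b, a membrane semaphorin, was dim in CA1 and DG (3.54 to 4.15 and 3.79 to 4.32) and had a mean of 5.61 in CA3. Dcc, the netrin receptor for attraction, was higher in CA3 than in DG by 1.08 ± 0.20 (adjusted p = 3.66e-05).

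Efnb2, a membrane ligand of EphB and EphA4 receptors, had lowest, median and highest levels of 7.48, 7.57 and 7.77 in CA1 of DN mice and of 5.81, 6.15 and 6.35 in DG. In CA3 the arrays stood at 4.60, 5.17, 4.38, 5.05 and 4.71. The 3 layers were apart from one another, in the order CA1, DG and CA3, with CA1 above CA3 by 2.83 ± 0.25 (adjusted p = 3.03e-12) and above DG by 1.46 ± 0.24 (adjusted p = 5.35e-06). Efnb3, of the same family, had another order, with CA1 (6.53 to 6.96) and DG (6.29 to 7.30) overlapping and CA3 below both at 4.57 to 5.68. Sema3a was dim in CA3 and DG and had a mean of 5.04 ± 0.16 (SD, n = 6) in CA1, with a difference of 1.80 ± 0.21 from CA3 (adjusted p = 2.71e-09) and of 1.21 ± 0.20 from DG (adjusted p = 4.23e-06). Of these ligands, Efnb2 and Sema3a were thus higher in CA1 than in either other layer.

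A group of receptors and one ligand was shared by the pyramidal layers and low in the granule layer. Epha3 ran from 8.37 to 8.84 in CA1, from 8.91 to 9.28 in CA3 and from 6.36 to 6.94 in DG, and was higher than in DG by 1.94 ± 0.18 in CA1 (adjusted p = 1.07e-11) and by 2.44 ± 0.19 in CA3 (adjusted p = 4.6e-14). Epha6 was higher than in DG by 2.15 ± 0.19 in CA1 and by 1.62 ± 0.20 in CA3. Sema3e, a secreted semaphorin that signals through Plxnd1, ran from 9.02 to 9.42 in CA1, from 8.54 to 8.93 in CA3 and from 6.38 to 6.82 in DG, with differences from DG of 2.64 ± 0.18 (adjusted p = 8.42e-16) and 2.21 ± 0.19 (adjusted p = 8.54e-13). Between CA1 and CA3, Epha3 (−0.50), Epha6 (0.54) and Sema3e (0.43) missed the threshold, with adjusted p from 0.0716 to 0.155, although their ranges were apart. The EphA receptors Epha4 and Epha7 were called in no comparison of layers in DN mice by their brightest probe sets. A second probe set of Epha4 was higher than in DG in CA1 (0.50, adjusted p = 0.0302) and in CA3 (0.70, adjusted p = 0.0024), where the brightest one differed by 0.39 and 0.48.

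Ntng1, a membrane-anchored netrin-G of axons, had lowest, median and highest levels of 7.71, 7.87 and 8.43 in DG of DN mice. Its CA1 arrays ran from 3.63 to 6.11 and its CA3 arrays from 3.72 to 6.53, so that DG lay above both, while the spread within CA1 (SD 1.01, n = 6) and CA3 (SD 1.34, n = 5) was wide. The difference of CA1 from DG was −2.96 ± 0.42 (adjusted p = 3.72e-07) and that of CA3 from DG −2.75 ± 0.45 (adjusted p = 4.05e-06). Sema5a, a membrane semaphorin, was also graded over the layers, with medians of 10.06 in DG, 9.25 in CA3 and 6.75 in CA1 and no overlap. CA1 differed from DG by −3.25 ± 0.31 (adjusted p = 1.41e-11) and CA3 from DG by −0.88 ± 0.32 (adjusted p = 0.0446). Sema6d was lower in CA1 than in DG by −1.09 ± 0.18 and in CA3 by −0.61 ± 0.19. The small ligand Efna1 was lower in both pyramidal layers than in DG (−0.40 and −0.46). The ligands Efnb2 (−1.37), Efnb3 (−1.96), Sema3a (−0.59) and Sema7a (−0.51) were lower in CA3 than in DG. Ephb3, an ephrin-B receptor, was dim in DG and CA3 and graded the other way, higher in CA1 than in CA3 by 0.73, in CA1 than in DG by 1.83 and in CA3 than in DG by 1.10, and Ephb6 was higher in CA1 than in DG by 0.76. The membrane semaphorins Sema4d and Sema4a were lower in CA1 than in CA3 by −0.67 and −0.55.

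**Figure D2:**
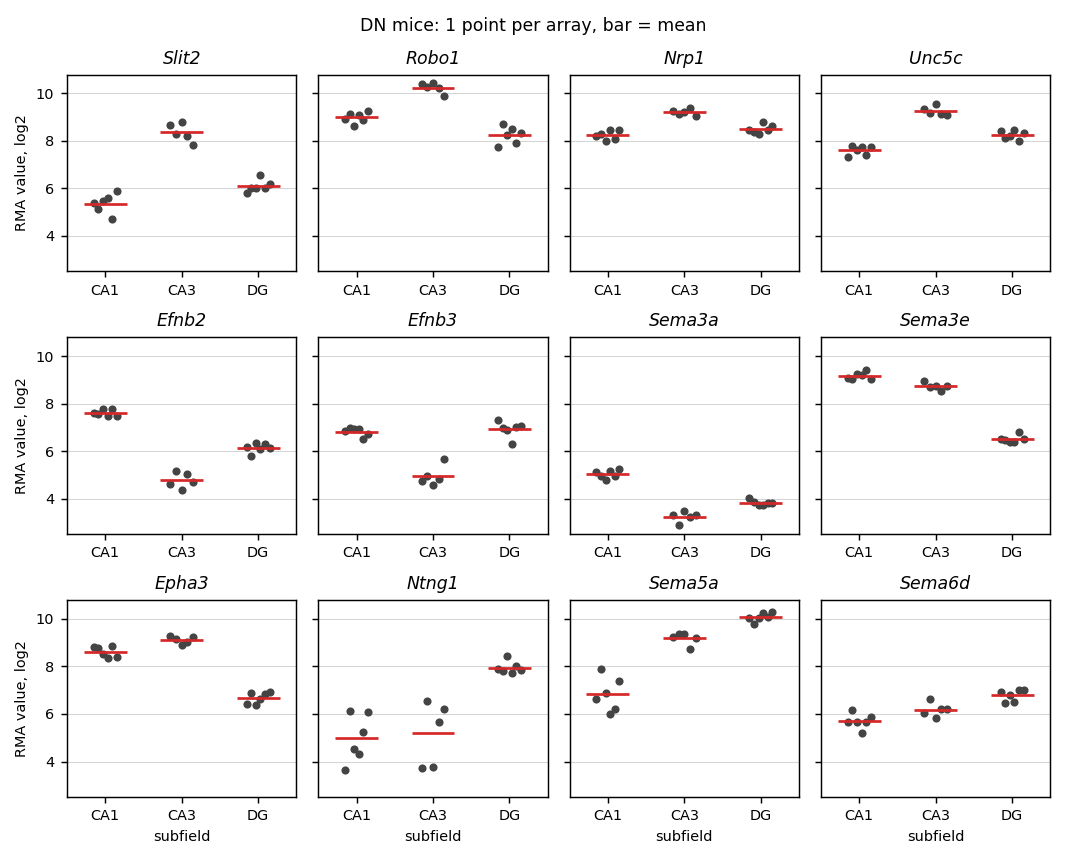
Log2 level of 12 guidance genes in each DN array of CA1 (6 arrays), CA3 (5) and DG (6), with points for arrays and a bar for the mean. Slit2 and Robo1 are highest in CA3, Efnb2 and Sema3a in CA1 and Ntng1 and Sema5a in DG, while Sema3e and Epha3 are low in DG.

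The layer differences were measured again in the other mice, which share no array with the DN mice. Between CA1 and CA3, 14 members were called in tTA mice and 18 in rTg4510 mice, where 13.4% and 16.4% of all named genes were called in either direction. The corresponding counts for CA1 against DG were 16 and 12 (16.9% and 13.7% of named genes) and for CA3 against DG 18 and 23 (18.6% and 20.1%). Of the 13 members called between CA1 and CA3 in DN mice, 11 were called in the same direction in tTA mice (84.6% of the DN genes and 78.6% of the tTA genes) and 10 in rTg4510 mice (76.9% and 55.6%). For CA1 against DG, 11 of 20 recurred in tTA mice (55% of the DN and 68.8% of the tTA genes) and 7 of 20 in rTg4510 mice (35% and 58.3%). For CA3 against DG, 15 of 23 recurred in each (65.2% and 83.3% with tTA, 65.2% of both lists with rTg4510). Over all named genes, the shares of the DN and tTA lists were 55.7% and 57.4% for CA1 against CA3. They were 52.4% and 57% for CA1 against DG, and 54.8% and 65.6% for CA3 against DG. With rTg4510 the shares over all named genes were 41.9% and 35.2%, 35.8% and 48.2%, and 58.8% and 65.2%, in the same order. For CA1 against DG the members' shares of the DN list were thus near those of all named genes. Calls in opposite directions were rare in these pairs of lists, with none among the 54 members and 4 to 35 among the 11807 named genes. The DN differences of CA1 from DG that were not called in rTg4510 mice included those of Efnb2, Epha3, Sema3a and Slit2.

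Where human tau was added to the activator, 5 of the 54 guidance genes (9.26%) were called in CA1, beside 11.6% of all named genes. In that layer, rTg4510 mice had less Sema3a, Epha6, Sema7a and Ephb3 and more Sema3c than tTA mice. That is 1 gene called higher and 4 lower of 54, where 6.23% of all named genes were called higher and 5.4% lower, and the median difference of the members was −0.03 beside −0.04 for all named genes. In CA3 and DG no member was called in limma, where 0.618% and 0.542% of named genes were called higher and lower in CA3 and 0.423% and 0.373% in DG. At an unadjusted p under 0.05, 19 members passed in CA1, 12 in CA3 and 10 in DG. The share of all named genes at that unadjusted threshold was not computed, so these counts are not read as changes. The least significant difference test of the study's methods, run on the same values with the same adjustment, called 4 members in CA1 and 0 in the other layers. The share of all named genes called by that test is not given here.

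Sema3a, the class 3 semaphorin that collapses growth cones through Nrp1 and plexin A, was read from a probe set of a gene at chr5:13124822-13603485 (GRCm38.p6). It stood at 4.99, 6.14, 6.47, 6.05 and 6.38 in the 5 tTA arrays of CA1 and at 4.64, 4.26, 3.96, 4.92 and 4.05 in the 5 rTg4510 arrays. No rTg4510 array reached the lowest tTA array, and the DN arrays, at 4.81 to 5.25, lay between the means of both. The difference of rTg4510 from tTA was −1.64 ± 0.24, or 3.12-fold (adjusted p = 0.000733). By brightest probe sets, Sema3a was the one member called higher in tTA than in DN CA1 (0.96, adjusted p = 0.00973), and in rTg4510 it was below DN by −0.68 (adjusted p = 0.0402). The rTg4510 mean of 4.36 was dim, and 2 further probe sets of the gene, with means over all arrays of 3.29 and 3.86, were not called between rTg4510 and tTA. In tTA against DN CA1 these differed by 0.12 and −0.66 (adjusted p = 0.366 and 0.0832), so that the second did not share the sign of the brightest one, and in rTg4510 against DN CA1 the second was called lower (−1.20, adjusted p = 0.00233).

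Sema3c, another secreted semaphorin (chr5:17574816-17730268), moved the other way. It stood at 5.84, 6.07, 5.05, 4.93 and 5.40 in tTA CA1 and at 6.90, 7.04, 6.34, 6.62 and 6.53 in rTg4510 CA1. Again the arrays did not overlap, and the difference was 1.23 ± 0.21, or 2.35-fold (adjusted p = 0.00208). The tTA arrays overlapped the DN arrays (5.32 to 6.04). The rTg4510 mean was also above the tTA mean in CA3 (6.22 against 5.80) and DG (6.98 against 6.30), without a call. The effect was not called as different between layers.

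Epha6, an ephrin-A receptor (chr16:59641433-60610911), stood at 8.59, 8.40, 8.79, 8.48 and 8.15 in tTA CA1 and at 8.26, 7.86, 7.96, 7.16 and 7.19 in rTg4510 CA1. One rTg4510 array lay inside the tTA range, and the difference was −0.80 ± 0.18, or 1.74-fold (adjusted p = 0.0107). It was not called with the 3-prime to 5-prime signal of Actb, a measure of RNA integrity, as a covariate (adjusted p = 0.0555) or in a fit of the 2 genotypes alone (0.0651). Sema7a, a membrane-anchored semaphorin (chr9:57939596-57962865), stood at 7.90, 7.61, 8.06, 7.41 and 7.52 in tTA and at 6.51, 6.94, 7.53, 7.61 and 6.86 in rTg4510 CA1. The groups overlapped, and the difference was −0.61 ± 0.18 (adjusted p = 0.0441). Ephb3, an ephrin-B receptor (chr16:21204620-21223309), stood at 4.48, 4.70, 4.42, 5.10 and 4.43 in tTA and at 4.47, 4.10, 4.30, 3.95 and 3.98 in rTg4510 CA1, dim in both and overlapping, with a difference of −0.47 ± 0.13 (adjusted p = 0.0306). The calls of Sema7a and Ephb3 were the least steady, holding under 7 of 25 and 15 of 24 alternative settings, while Sema3a and Sema3c were called under every one. Without the last of the 5 rTg4510 CA1 arrays, in the order printed, 3 members were called, and without the second or the third, 7.

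With all 49 arrays fitted together and the mouse as a replicate block, 12 members were called between rTg4510 and tTA in CA1 and 1 in DG. The share of all named genes called in that fit is not given here, so these counts cannot be set against the shares above. That fit also pools the spread over the 9 groups, so it differs from the fits of 1 layer by more than the block. The genes added in CA1 were Sema5a (1.52), Unc5c (1.22) and Robo1 (0.58), higher in rTg4510, and Sema3e (−0.83), Epha3 (−0.67), Epha7 (−0.66) and Efna2 (−0.36), lower, with adjusted p from 0.00269 to 0.0421. Mean CA1 levels in DN, tTA and rTg4510 mice were 6.84, 4.89 and 6.42 for Sema5a and 7.59, 6.12 and 7.36 for Unc5c. For Robo1 they were 8.98, 8.76 and 9.35. Sema5a and Unc5c of rTg4510 mice thus stayed below the DN mean. The gene in DG was Ntn4, a laminin-like netrin (0.97, adjusted p = 0.0374). Beside these calls, 8 of 11 microglial, 7 of 9 astrocyte, 4 of 8 oligodendrocyte, 7 of 11 interneuron, 4 of 6 meningeal and 4 of 12 endothelial genes were called higher in rTg4510 than in tTA CA1. Of the pyramidal lists, 2 of 4 CA3 genes were called higher and 4 of 4 CA1 genes lower in that contrast. Their part in the result was not tested.

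**Figure D3:**
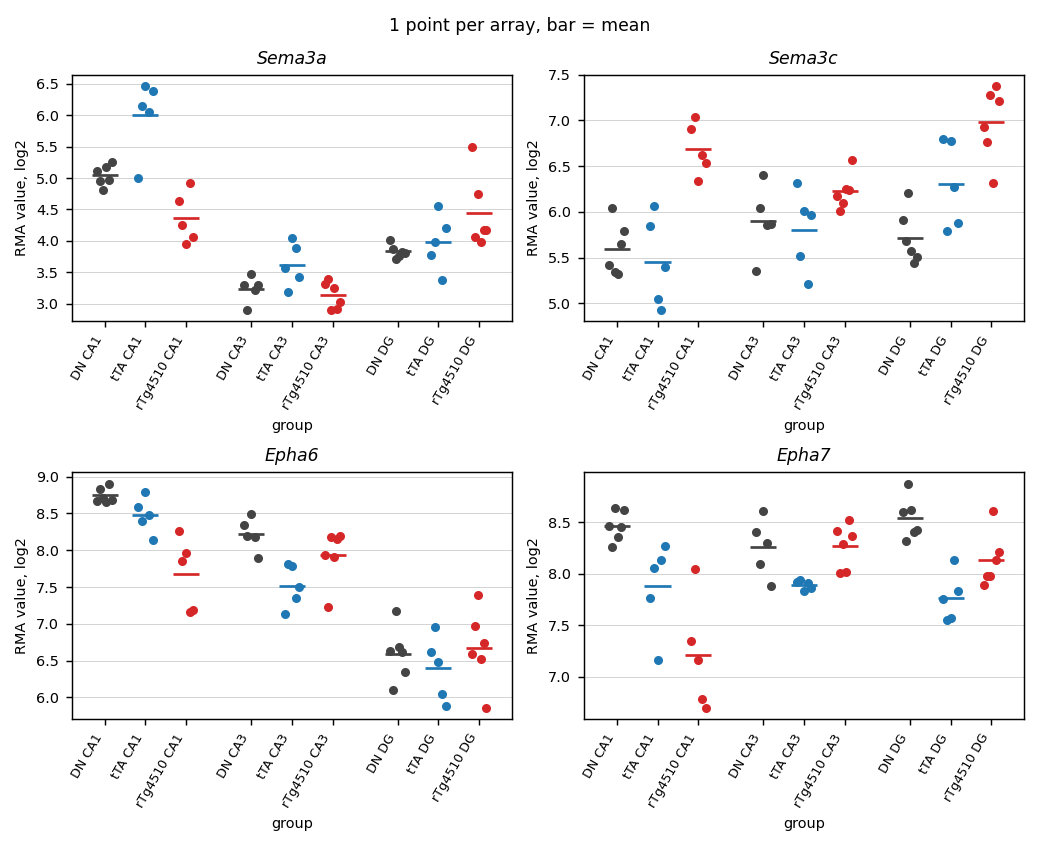
Log2 level of Sema3a, Sema3c, Epha6 and Epha7 in each array of the 9 groups, with points for arrays and a bar for the mean. In CA1, Sema3a of rTg4510 mice lies below and Sema3c above every tTA array, while Epha6 and Epha7 overlap between these groups.

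The rTg4510 minus tTA difference was then compared between layers, by testing that of CA1 against that of CA3 or DG. Against CA3, 5 members were called, all with the lower value in CA1, where 4.31% of named genes were called in either direction. Against DG, 3 were called, again all lower in CA1, where 6.14% of named genes were called. Between CA3 and DG no member was called in limma, where 0.0169% of named genes were called. At an unadjusted p under 0.05, 5 members passed, with no share of all named genes computed. The genes were Sema3a and Sema3e among the secreted semaphorins and Epha3, Epha6 and Epha7 among the EphA receptors.

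For Sema3a, the rTg4510 minus tTA difference was −1.64 in CA1 but −0.48 in CA3 and 0.46 in DG. The difference between layers was −1.17 ± 0.30 for CA1 against CA3 (adjusted p = 0.0178) and −2.11 ± 0.30 for CA1 against DG (adjusted p = 2.6e-05). Sema3a was dim in CA3 and DG of both genotypes. Epha6 differed by −0.80 in CA1, 0.42 in CA3 and 0.28 in DG, giving −1.22 ± 0.29 (adjusted p = 0.011) and −1.08 ± 0.29 (adjusted p = 0.0179) between layers. Epha7, another ephrin-A receptor, differed by −0.67, 0.38 and 0.37, giving −1.04 ± 0.24 (adjusted p = 0.00853) and −1.03 ± 0.24 (adjusted p = 0.00568). So the signs of both receptors were opposite in CA1 and in the other layers, although Epha7 was not called when a layer was fitted alone. Mean Epha6 levels in CA3 were 8.22, 7.52 and 7.93 in DN, tTA and rTg4510 mice. Mean Epha7 levels in DG were 8.54, 7.77 and 8.14 in the same order. In both, tTA was called below DN. In CA1 it was called with the mouse as a block (−0.66, adjusted p = 0.0107), as was a second probe set in that layer alone (−0.54, adjusted p = 0.0113). Epha3 (−0.65 in CA1 and 0.26 in CA3, adjusted p = 0.0461) and Sema3e (−0.81 and 0.13, adjusted p = 0.0373) passed in CA1 against CA3 only, and these calls held under 6 and 13 of 22 alternatives. Leaving out the rTg4510 mouse of the fourth CA1 array, in the order printed above, removed the calls of Epha6 (adjusted p = 0.061) and Epha7 (0.0519) against CA3, and 2 in place of 5 members were then called. Without the mouse of the fifth CA1 array 2 were called as well.

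**Figure D4:**
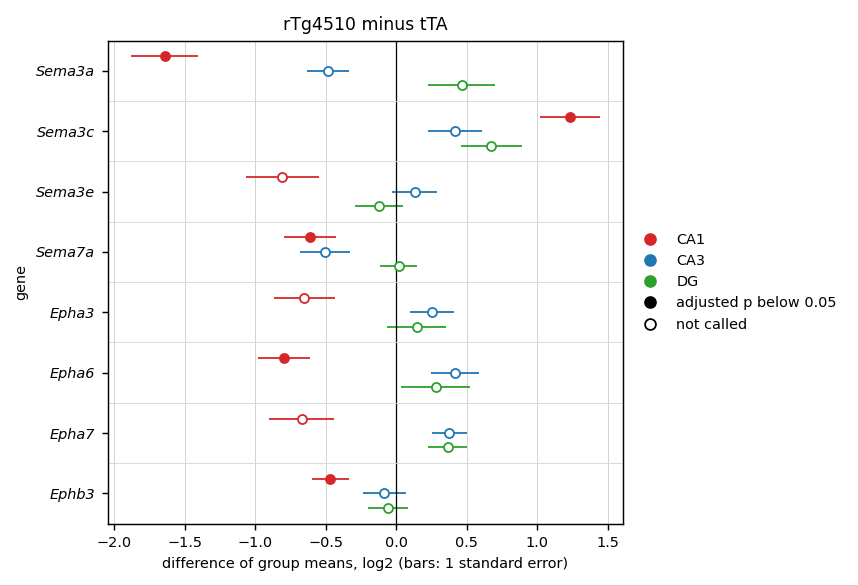
Difference in log2 level between rTg4510 and tTA mice in CA1, CA3 and DG for the 8 genes called within CA1 or between layers, with bars of 1 standard error and filled points for calls within a layer. Values below 0 are lower in rTg4510 mice; Epha3, Epha6 and Epha7 lie below 0 in CA1 and above 0 in CA3 and DG.

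The proximal promoters of the 3 genes called against both other layers, Sema3a, Epha6 and Epha7, are shown as the 250 bases before a RefSeq start site (GRCm38.p6), 5′ to 3′ on the gene's strand, with capitals on each GC box (GGGCGG on either strand), the letters bound by Sp family factors.
Sema3a, chr5:13396534-13396783, plus strand: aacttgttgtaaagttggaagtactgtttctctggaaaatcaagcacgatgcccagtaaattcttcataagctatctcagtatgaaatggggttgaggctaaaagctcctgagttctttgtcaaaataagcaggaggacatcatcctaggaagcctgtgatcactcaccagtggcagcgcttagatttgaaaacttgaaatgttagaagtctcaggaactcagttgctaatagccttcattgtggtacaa
Epha6, chr16:60605532-60605781, minus strand: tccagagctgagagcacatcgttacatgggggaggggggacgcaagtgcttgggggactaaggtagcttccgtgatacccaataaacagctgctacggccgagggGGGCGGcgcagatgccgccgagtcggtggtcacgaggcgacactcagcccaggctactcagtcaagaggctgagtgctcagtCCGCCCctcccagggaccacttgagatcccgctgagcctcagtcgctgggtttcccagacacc
Epha7, chr4:28812881-28813130, plus strand: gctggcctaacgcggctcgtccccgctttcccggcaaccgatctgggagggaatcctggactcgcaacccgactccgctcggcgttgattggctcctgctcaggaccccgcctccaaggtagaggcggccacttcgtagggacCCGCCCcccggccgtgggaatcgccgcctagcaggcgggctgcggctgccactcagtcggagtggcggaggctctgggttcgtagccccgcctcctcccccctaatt
The Sema3a window had 40.8% GC and no GC box, the Epha6 window 62.8% and 2, and the Epha7 window 69.2% and 1. The Sema3a and Epha6 windows lay inside the annotated span of their genes, before a start of a shorter transcript. The Epha7 window reached into the first bases of its gene's annotated span, and a second RefSeq window of Epha7, slightly shifted, had 66.8% GC and 1 GC box. RefSeq windows were matched for 46 of the 54 members, 58 windows in all, and a GC box was found in 72.4% of them, beside 32.7% of all 32851 windows of the same length, whose median GC content was 52.4% against 64.2% for the members. The cyclic AMP element TGACGTCA was found in 1.72% of member windows and 1.55% of all, the AP-1 letters TGANTCA in 3.45% and 6.75%, the E-box CANNTG in 43.1% and 66.2% and the TATA letters TATAAA in 3.45% and 12.4%. These are letter matches and not measured binding.

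The activator alone was accompanied by lower levels of guidance genes of several classes. In tTA mice against DN mice, 1 member was called higher and 9 lower in CA1 (7.94% and 8.52% of named genes), 2 higher and 7 lower in CA3 (4.41% and 4.59%), and 0 higher and 11 lower in DG (7.98% and 9.49%). The 21 genes (38.9%) called in at least 1 layer included 3 (5.56%) called in all of them, namely Epha4, Sema5a and Unc5c, where 28.8% and 3.64% of all named genes were. With the mouse as a block the call of Unc5c in CA3 was lost (adjusted p = 0.118). The median difference over the members was −0.07 in CA1 and 0.01 in DG, beside 0.06 and 0.03 for all named genes. The animal numbers of the DN mice in the labels form a range of their own, apart from those of both transgenic groups, and any batch that went with it cannot be told apart from genotype.

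Epha4, a receptor for both ephrin classes, was lower in every layer. In CA1 it stood at 9.21, 9.16, 8.79, 8.98 and 9.11 in tTA mice, against a lowest, median and highest level of 10.00, 10.45 and 10.58 in DN mice. The arrays did not overlap, and the difference was −1.32 (adjusted p = 0.000315). In DG the tTA arrays (8.08 to 8.94) lay below the DN arrays (9.67 to 10.36) as well, by −1.33 (adjusted p = 0.000128), and in CA3 (9.13 to 9.90 against 10.15 to 10.70) by −0.89 (adjusted p = 0.0191). Sema5a fell by 1.95 in CA1, 1.08 in CA3 and 1.46 in DG on the log2 scale. Its DG arrays stood at 9.26, 8.26, 7.96, 8.93 and 8.71 in tTA mice, all below the DN arrays at 9.77 to 10.30. In tTA CA1 its mean of 4.89 was dim. A second probe set of Sema5a differed by −0.89 in CA1, −0.59 in CA3 and −0.78 in DG. It was called in DG only (limma adjusted p = 0.24, 0.194 and 0.0186). Unc5c fell by 1.48, 0.81 and 1.03 in the same order. In CA1 the tTA arrays of Unc5c were spread from 4.13 to 7.24, and that call (adjusted p = 0.0437) was lost under 13 of 25 alternatives.

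Other genes were called in fewer layers. Efnb2, the ligand highest in CA1 of DN mice, stood at 5.00, 5.19, 6.16, 6.70 and 5.27 in tTA CA1, below every DN array, with a difference of −1.95 (adjusted p = 0.000203) and of −0.92 in DG (adjusted p = 0.00275). In CA3, where it was dim, its means were 4.76 in tTA and 4.78 in DN mice. Ntng1 stood at 5.80, 5.57, 5.41, 5.60 and 5.51 in tTA DG, against 7.71 to 8.43 in DN DG, a difference of −2.37 (adjusted p = 0.000121). The slit genes were lower in DG, Slit1 by −0.98 (adjusted p = 6.32e-05) and Slit2 by −0.90 (adjusted p = 0.00775), and Slit1 also in CA1 by −0.63. Of the semaphorin receptors, Plxna2 was lower in CA1 (−0.82) and CA3 (−0.96) and Nrp2 in CA3 (−0.82, adjusted p = 0.00225).

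The remaining calls were of 1 layer each. In CA1, Dcc (−0.83), Ephb3 (−0.68) and Efnb3 (−0.62) were lower. In CA3, Epha6 (−0.70) and Robo1 (−0.67) were lower and Sema3f (0.39) and Sema4b (0.62) higher. In DG, Epha7 (−0.77), Sema6d (−0.40), Efna1 (−0.38) and Ntng2 (−0.27) were lower, with Sema6d at an adjusted p of 0.0489 and lost under 20 of 26 alternatives, the mouse block among them (0.163). Without the third of the DN CA3 arrays, in the order printed, 4 in place of 9 members were called in CA3. Microglial genes were called higher for 3, 8 and 7 of 11 in CA1, CA3 and DG, and astrocyte genes for 5, 6 and 8 of 9, and the Actb 3-prime minus 5-prime signal averaged −0.37 in DN and −0.70 in tTA CA1, −0.45 and −0.64 in CA3, and −0.30 and −0.61 in DG. With that signal as a covariate, 3 members were called in CA1 and 4 in CA3. In DG, 4 of 6 dentate granule genes were lower and 1 higher. CA3 pyramidal genes were called lower for 2 of 4 in CA1 and 2 of 4 in CA3. CA1 pyramidal genes were called lower for 1 of 4 in CA1 and 2 of 4 in DG. The part of these cell types in the result was not tested.

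**Figure D5:**
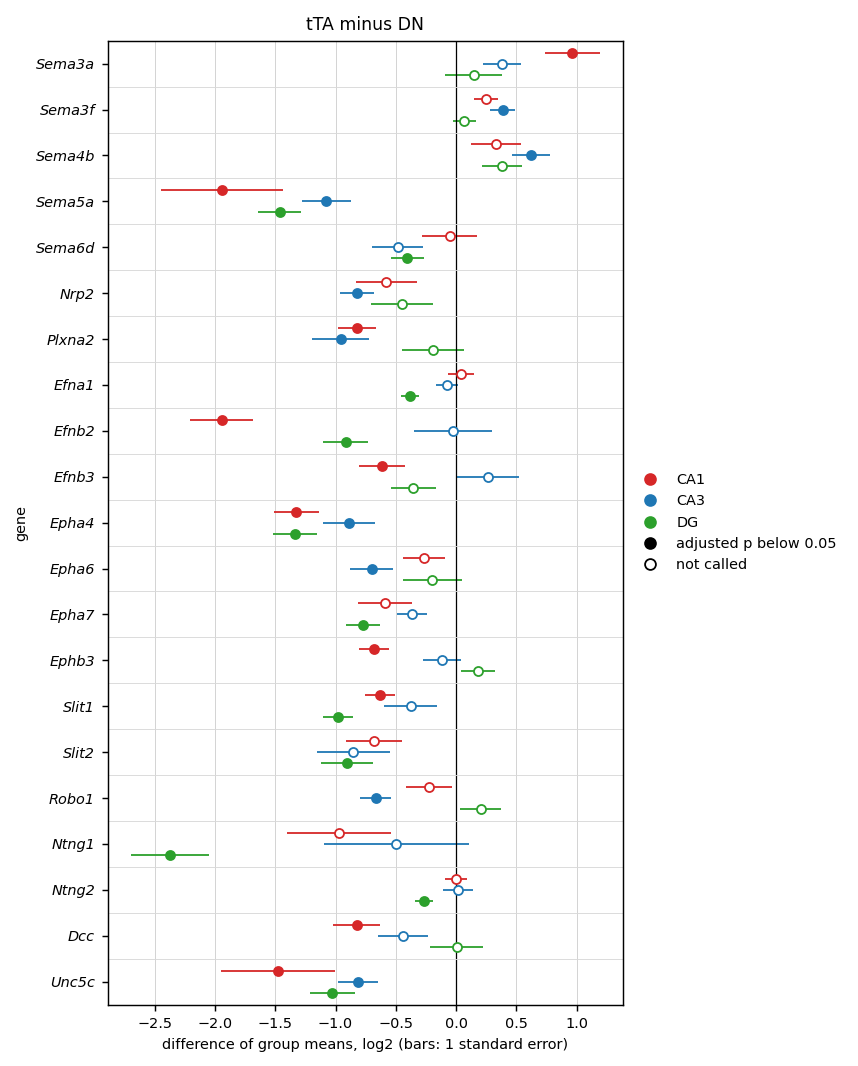
Difference in log2 level between tTA and DN mice in CA1, CA3 and DG for the 21 members called in at least 1 layer, with bars of 1 standard error and filled points for calls. By their brightest probe sets, Epha4, Sema5a and Unc5c are below 0 and called in all 3 layers, and Sema3a in CA1 lies above 0.

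Tested between layers, the difference of tTA from DN mice was not the same for 5 members. For Efnb2 it was lower in CA1 than in CA3 by −1.93 (adjusted p = 0.0017), the 1 member called where 0.762% of named genes were. Between CA1 and DG, Ephb3 (−0.87, adjusted p = 0.0095) and Ephb6 (−0.75, adjusted p = 0.0163) had the lower value in CA1 and Efna1 (0.42, adjusted p = 0.0435) the higher, where 1.84% of named genes were called. Between CA3 and DG, Robo1 (−0.88, adjusted p = 0.0384) had the lower value in CA3, where 1.43% were called.

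Mice with both transgenes were also set against DN mice. These contrasts share their arrays with those above and are no independent measurement. In CA1, 3 members were called higher and 15 lower (12.2% and 12.5% of named genes), in CA3 0 higher and 2 lower (2.14% and 1.22%), and in DG 3 higher and 9 lower (4.59% and 5.24%). The median difference of the members in CA1 was −0.13, beside 0.03 for all named genes. The lower genes in CA1 were led by Efnb2 (−1.95, adjusted p = 5.44e-05), Sema3e (−1.54, adjusted p = 0.000281) and Epha4 (−1.43, adjusted p = 4.82e-05), followed by Epha7 (−1.26), Ephb3 (−1.15), Epha6 (−1.06) and Efnb3 (−1.02). Thus 4 of 8 EphA receptors were lower in rTg4510 than in DN CA1, the other called one being Epha3 (−0.92). Smaller falls were those of Plxna2 (−0.96), Sema4f (−0.87), Nrp2 (−0.81), Slit1 (−0.75), Sema3a (−0.68), Dcc (−0.56) and Nrp1 (−0.49). Sema3c (1.09, adjusted p = 0.00089), Ntn4 (1.07, adjusted p = 0.00351) and Sema3b (0.72) were higher. Sema3b was dim in all 9 groups, and its other probe sets were not called (0.03 and 0.06, limma adjusted p = 0.843 and 0.856).

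The arrays of Sema3e show the order of the genotypes in CA1. They had a lowest, median and highest level of 9.02, 9.12 and 9.42 in DN mice, stood at 8.09, 8.21, 8.86, 8.83 and 8.15 in tTA mice and at 8.19, 8.51, 7.30, 7.18 and 6.93 in rTg4510 mice. Both transgenic groups lay below every DN array and overlapped each other. In CA3 the rTg4510 arrays ran from 8.01 to 8.98 and overlapped the DN arrays. In rTg4510 against DN CA1, 4 of 4 CA1 pyramidal genes were called lower. All 11 microglial and all 9 astrocyte genes were called higher. So were 7 of 8 oligodendrocyte, 8 of 11 interneuron, 5 of 6 meningeal, 7 of 12 endothelial and 2 of 4 CA3 pyramidal genes. The part of these cell types in the differences was not tested.

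In CA3 the neuropilins were the members called, Nrp2 by −0.83 (adjusted p = 0.00282) and Nrp1 by −0.59 (adjusted p = 0.0221). Nrp2 ran from 7.33 to 8.13 in rTg4510 and from 8.60 to 8.87 in DN CA3, with no overlap, and the tTA arrays (7.65 to 8.13) were also below DN. In DG, Ntng1 (−2.21, adjusted p = 0.000196), Unc5c (−1.13), Efnb2 (−1.11), Slit2 (−0.93), Epha4 (−0.78), Sema5a (−0.75), Slit1 (−0.73), Efna1 (−0.46) and Ntng2 (−0.27) were lower, of which Sema5a was not called with the mouse as a block (adjusted p = 0.147), and Sema3c (1.26, adjusted p = 0.000866), Ntn4 (0.93) and Robo1 (0.73) higher. The Sema3c arrays of rTg4510 DG ran from 6.32 to 7.38 with a median of 7.07, above every DN array (5.44 to 6.21), and the tTA arrays at 6.80, 5.79, 6.78, 6.27 and 5.88 spanned the gap between them. Microglial genes were called higher in rTg4510 than in DN mice for 8 of 11 in CA3 and 6 of 11 in DG, and astrocyte genes for 5 of 9 and 8 of 9. In DG, 3 of 6 dentate granule genes were lower and 1 higher. Their part in these differences was not tested.

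For genes with several probe sets, the brightest was used above, and no member had probe sets called in opposite directions in any of the genotype contrasts or the DN layer contrasts. A second probe set of Unc5c was called higher in rTg4510 than in tTA CA1 (1.67, adjusted p = 0.0015) and CA3 (0.81, adjusted p = 0.0429), where the brightest one was at 1.24 in CA1 and not called. That second probe set was called lower in tTA than in DN mice in CA1 (−1.15) and CA3 (−1.12). Between rTg4510 and DN mice it was not called in either layer (0.52 and −0.30). Further probe sets of Epha3 (−0.97), Epha7 (−0.54), Sema3e (−1.24 and −1.13) and Sema6c (−0.39) were called lower in rTg4510 than in tTA CA1. That of Sema6c was dim, with a mean of 3.60 over all arrays. It was called higher in tTA than in DN CA1 (0.40, limma adjusted p = 0.0148) and differed by 0.01 between rTg4510 and DN CA1 (limma adjusted p = 0.959). Counting a gene as called where any of its probe sets was, 10 members were called in CA1 and 1 in CA3. All named genes were not counted in that way, so no share stands beside these counts. In tTA against DN mice, 2 other probe sets of Nrp1 were lower in every layer, by −1.14 and −1.12 in CA1, −1.09 and −1.05 in CA3, and −0.70 and −0.87 in DG, while the brightest one was not called.

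Guidance genes outside the ligand and receptor families were read from companion lists. Of 14 measured genes for other cues, receptors and cofactors, 1 was higher (6.23% of all named genes were) and 0 lower in rTg4510 than in tTA CA1. It was Wnt5a, a secreted Wnt that repels axons through Ryk (1.49, adjusted p = 0.00143), and its difference was larger in CA1 than in CA3 (1.23, adjusted p = 0.0486) and DG (1.58, adjusted p = 0.00604). In CA3 the frizzled receptor Fzd3 was higher (0.55, adjusted p = 0.0405). In tTA against DN mice, 0 were higher and 6, 5 and 4 lower in CA1, CA3 and DG (42.9%, 35.7% and 28.6% of the list, beside 8.52%, 4.59% and 9.49% of all named genes called lower). These included the adhesion molecules Chl1 (−1.32, −1.12 and −1.45) and L1cam (−0.85, −0.61 and −0.56) and Fzd3 (−1.25, −0.62 and −0.70) in each layer.

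Of 36 measured intracellular effectors of guidance receptors, 3 were higher and 3 lower in rTg4510 than in tTA CA1, beside 6.23% and 5.4% of all named genes. Mical1, an oxidase that acts on actin after plexin activation (1.07), Chn2 (0.54) and Pak3 (0.52) were higher, and Crmp1, a collapsin response mediator (−0.98), was lower. In CA3, Pak3, a kinase that acts after Rac, was higher (0.66, adjusted p = 0.0262), and in DG none was called. Pak3 in CA3 was lower in tTA than in DN mice (−0.66, limma adjusted p = 0.00769). In tTA against DN mice, 1 was higher and 7 lower in CA1 (7.94% and 8.52% of all named genes), 2 and 3 in CA3 (4.41% and 4.59%), and 3 and 5 in DG (7.98% and 9.49%), with Ngef, an exchange factor bound to EphA4 (−1.13), Pak3 (−0.97) and Gap43 (−0.83) among the lower in CA1. In DN mice, 9 effectors were higher and 8 lower in CA3 than in DG (11.6% and 10.7% of all named genes), among them the Rac exchange factor Tiam1 at −3.56, which also differed by −2.65 between CA1 and DG.

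Over all 24 contrasts, 40 members (74.1%) were called at least once and 14 never, where 61.2% of all named genes were called at least once. The latter were Efna2, Efna4, Efnb1, Epha1, Epha2, Epha8, Ephb4, Ntn1, Plxna3, Plxnb2, Plxnb3, Robo4, Sema4g and Sema6a. In the genotype contrasts 29 members (53.7%) were called at least once and 25 never, beside 42.7% of all named genes called at least once.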

How the data were processed

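Gene expression was measured on Affymetrix HT-MG-430A arrays, 1 for each of 49 libraries of laser-captured layers. The deposited values are log2 intensities, which the authors made with the RMA algorithm (background correction, quantile normalization and summary of probes over arrays normalized jointly), so that a shift of all genes in a layer is hidden. The RMA version and the batches of hybridization are not given in the sources used here. No reads were counted, so precision is limited by the number of arrays. Values ran from 1.94 to 13.83 and array medians from 4.95 to 5.07, and no 2 arrays were identical. Of 22716 probe sets, 90 controls were left out and 22626 tested. Of all probe sets, 18003 carry 1 symbol, 287 several and 4336 are unnamed here.

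Genotypes were compared within a layer by limma 3.58.1 in R 4.3.3, with the 3 genotypes in 1 fit, and layers and differences between layers over the 9 groups with the mouse as a random block (consensus correlation 0.117). Adjustment was by Benjamini-Hochberg over all probe sets. Same-numbered arrays come from the same mouse per the labels. The median correlation of their deviations was 0.12 over 47 pairs (−0.15 to 0.32, 27 above 0.1). For fits leaving out a mouse, that correlation was estimated on every 5th probe set. A genotype contrast in CA1 and a layer contrast in DN mice were tried on simulated data. That simulation held no correlation within a mouse and covered no comparison of genotype effects between layers.

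Members and gene lists (cell type markers, companion genes) were chosen with earlier results of these data known. Named were every member called in a genotype contrast, the 8 largest called differences in each direction between DN layers, and, after their values were seen, genes set beside them. Alternatives were array weights, a trended prior, renormalization, a filter on dim probe sets, Actb 3-prime to 5-prime signal as a covariate, 2 genotypes only, any probe set, the mouse block, left-out arrays and mice, and the least significant difference test of the study's methods on log2 and anti-log values. Promoter sequences were read from RefSeq windows. A chromosomal location is that of RefSeq on GRCm38.p6.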

Additional observations from a re-analysis of the deposited data

Results flagged for a closer look

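In 3 of 110 groups of arrays of the named members, 1 array stood away from the rest, where chance gives about 1 in 20. Sema3a in CA1 of tTA mice had its lowest array at 4.99, with the next at 6.05. Sema5a in CA3 of DN mice had its lowest at 8.72, with the next at 9.22. Efna1 in DG of tTA mice, dim throughout, had its lowest at 3.44, with the next at 3.64.

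The rTg4510 minus tTA difference was not the same in CA1 and CA3, by the interaction test in limma, for Epha3 (−0.93), Epha6 (−1.22), Epha7 (−1.04), Sema3a (−1.17) and Sema3e (−0.96), and between CA1 and DG for Epha6 (−1.08), Epha7 (−1.03) and Sema3a (−2.11), each value being the difference in CA1 minus that in the other layer. The tTA minus DN difference was not the same in CA1 and CA3 for Efnb2 (−1.93), in CA1 and DG for Ephb3 (−0.87), Ephb6 (−0.75) and Efna1 (0.42), and in CA3 and DG for Robo1 (−0.88). Their standard errors, adjusted p-values and levels are given above, and no explanation was tested.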

How the results depend on the processing

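Of 5375 alternative values for 237 called differences of single members, 5008 kept their direction and their call, 367 kept the direction without the call, and 0 reversed. Of 582 alternative counts of called members, 529 lay within 1.5 times the reported count and 53 did not; the cause was not tested for any of the latter.

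Between rTg4510 and tTA in CA1 the 5 calls became 12 with the mouse as a replicate block over 9 groups, 10 with any probe set counted, 3 with the least significant difference test on anti-log values, and 2 each with the Actb covariate and with these genotypes alone in the fit. The shares of all named genes called under these settings are not given here. In CA3, 1 member was called with any probe set (Unc5c), with a filter on dim probe sets or after renewed quantile normalization (both Sema4b), and in DG 1 with the replicate block (Ntn4), the filter or a trended spread (both Sema5a), against 0 as reported. For tTA against DN, the 10 calls of CA1 became 3 with the Actb covariate and 16 with any probe set or with these genotypes alone, and the 9 of CA3 became 4 with that covariate. Array weights gave 4 in place of 2 for rTg4510 against DN in CA3 and 22 in place of 13 for CA1 against CA3 in DN mice, and the filter gave 15 in place of 23 for CA3 against DG in rTg4510 mice.

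For differences of the rTg4510 effect between CA1 and CA3, 3 in place of 5 were called without the replicate block and after renewed quantile normalization, and between CA1 and DG 6 in place of 3 with any probe set. For the tTA effect between CA1 and DG, 6 in place of 3 were called with any probe set and 1 with the filter, and between CA3 and DG 2 in place of 1 with any probe set or array weights and 0 without the replicate block. In the other contrasts, removing the mouse block, or using the fit of 9 groups with the block for genotypes, left the count within 1.5 times. With that fit of 9 groups, further members were called for tTA against DN in CA1 (Efna2, Epha7, Ephb6, Sema3e and Sema3f) and CA3 (Nrp1 and Slit2) and for rTg4510 against DN in CA1 (Ephb6 and Unc5b), CA3 (Epha4) and DG (Sema4a).

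In the order in which values are printed, leaving out 1 array gave 3 to 7 calls for rTg4510 against tTA in CA1, 0 to 1 in CA3 (1 without the fourth rTg4510 or the first tTA array) and 0 to 1 in DG (1 without the second rTg4510 or the first tTA array), 4 to 10 for tTA against DN in CA3 (4 without the third DN array), and 1 to 4 for rTg4510 against DN in CA3 (4 without the fifth rTg4510 array, 1 without the first, the third or the fourth DN array). Leaving out 1 mouse gave 2 to 6 for the rTg4510 effect between CA1 and CA3 and 2 to 6 between CA1 and DG (in both, 2 without the rTg4510 mouse of the fourth CA1 array and 6 without that of the second), and, for the tTA effect, 1 to 4 between CA1 and DG and 0 to 2 between CA3 and DG, where the 1 call was lost without any of 4 DN, 2 tTA or 1 rTg4510 mice.

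Signal limits these results most where members were dim. Sema3a was dim in CA3 and DG, and the 22 members dim in all groups allow few changes to be seen. Groups of 5 or 6 mice and 1 array a layer set the precision, and an adjusted p above the threshold does not show that a level was equal. RMA over all arrays hides shifts shared by all genes.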
